A study of Mus musculus with 31 samples.

Results

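Transcript ratios of the BXD recombinant inbred mouse strains numbered 1 to 14 were compared with those of strains 15 to 32. The first group, BXD1-14, held 10 arrays, from BXD1, 2, 5, 6, 8, 9, 11, 12, 13 and 14. The second, BXD15-32, held 14 arrays, from BXD15, 16, 18, 19, 20, 21, 22, 23, 24, 27, 28, 29, 31 and 32. Together these were 24 of the 31 arrays of the series, chosen by the strain number in the sample titles, and the other 7 were of BXD33-42. All strains carry the BXD/TyJ name, and the labels give no boundary at BXD15. That boundary was placed with an earlier clustering of these arrays known, so a difference between the groups was in view when they were formed.

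For each strain, total RNA of 3 male mice aged 8 weeks was pooled, and 20 ug was labelled with the red dye Alexa Fluor 647. It was hybridised to a spotted glass array of 23040 probes together with a C57BL/6J pool of male mice of the same age, labelled with the green dye Alexa Fluor 555. That C57BL/6J reference was common to all arrays, carried spike-in transcripts, and cancels in a difference between groups of strains. The dyes were not swapped. Each strain had 1 array, so a p-value measures the spread between arrays of different strains, and an effect of the strain cannot be told apart from one of its array. Titles name kidney and the source fields name whole brain for both dyes. A ratio to a reference of the same tissue holds no level, so marker genes of either tissue could not settle which it was. The values are taken as log2 of strain over reference, which is the usual reading of red over green and is not stated.

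BXD strains were bred by crossing C57BL/6J with DBA/2J and inbreeding the offspring by brother and sister mating, which fixes either parental allele at each locus. A local variant therefore divides the strains by the allele they inherited, and each number is the name of a line, with no dose or time attached to it. Lines of neighbouring number share no more ancestry by design than lines far apart. The male mouse kidney is known for genes of the proximal tubule that respond to androgen, and immune cells in the tissue present antigen on MHC class II molecules.

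The arrays of the groups were set apart in part, with exceptions on both sides. The first principal component held 22.4% of the variance of the 24 arrays. In BXD1-14 the scores had a lowest value of -43.1, a median of -27.3 and a highest value of 8.28, and 9 of 10 were below 0, with BXD9 the exception. In BXD15-32 they had a lowest value of -44.3, a median of 22.7 and a highest value of 50.8, and 10 of 14 were above 0. The groups overlapped, since BXD19, BXD20, BXD27 and BXD28 lay on the side of BXD1-14. Pearson correlations over probes had a median of 0.511 between arrays of BXD1-14, 0.410 between arrays of BXD15-32 and 0.342 across the groups. BXD15 stood apart from the rest, with a median correlation of 0.186 and none above 0.291.

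**Figure D1:**
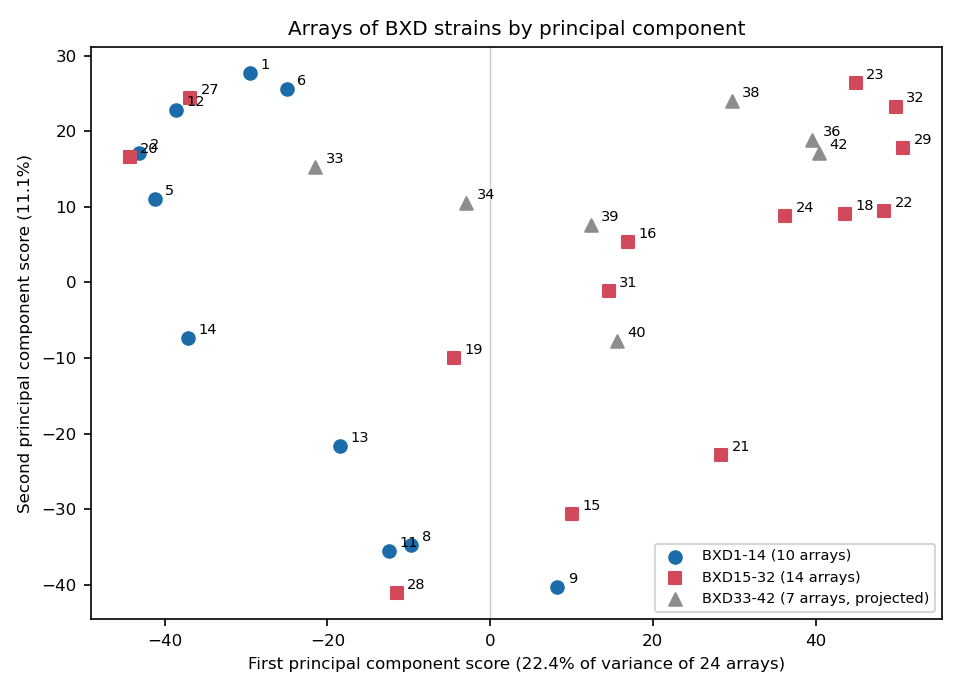
Scores of the arrays on the first principal component (x axis, 22.4% of variance) and the second (y axis, 11.1%), computed from the 24 arrays of BXD1-14 (circles) and BXD15-32 (squares), with BXD33-42 (triangles) projected onto them. Numbers are strain numbers. Of BXD1-14, 9 arrays lie left of 0, and of BXD15-32, 10 lie right of 0 and BXD19, 20, 27 and 28 lie left of it.

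Differences of single probes between the groups were mostly small. Over all 23040 probes, the log2 difference (BXD15-32 minus BXD1-14) had an SD of 0.313 and ran from -2.79 to 2.20. For 237 probes (1.03%) the difference was 1 or more in either direction. With limma and Benjamini-Hochberg adjustment, 395 probes had an adjusted p under 0.05, which is 1.71% of those tested, and these probes are referred to as called. Of these, 205 were higher (0.89%) and 190 lower (0.825%) in BXD15-32. At an unadjusted p under 0.05 there were 5078 probes (22%). With no difference and a boundary placed without the values in view, 1152 would be expected. This boundary was placed with an earlier clustering of the arrays known, so the 1152 is no measure of chance for it. The values of the groups did not overlap for 1 probe, or 0.00434% of those tested.

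The calls lay close to the threshold and rested on the whole set of arrays. The smallest adjusted p was 0.0319. Without BXD15, limma called 664 probes (2.88%), 334 higher (1.45%) and 330 lower (1.43%), and 390 of the 395 were among them. Leaving out BXD20, BXD27 or BXD28 raised the number to 1754, 1279 and 1156. Leaving out any 1 of BXD1, 2, 12, 18, 22, 24, 29 or 32 brought it to 0, with a smallest adjusted p between 0.0512 and 0.0575. Over the 24 fits that each lacked 1 array, the number at an unadjusted p under 0.05 stayed between 4410 and 6034.

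**Figure D2:**
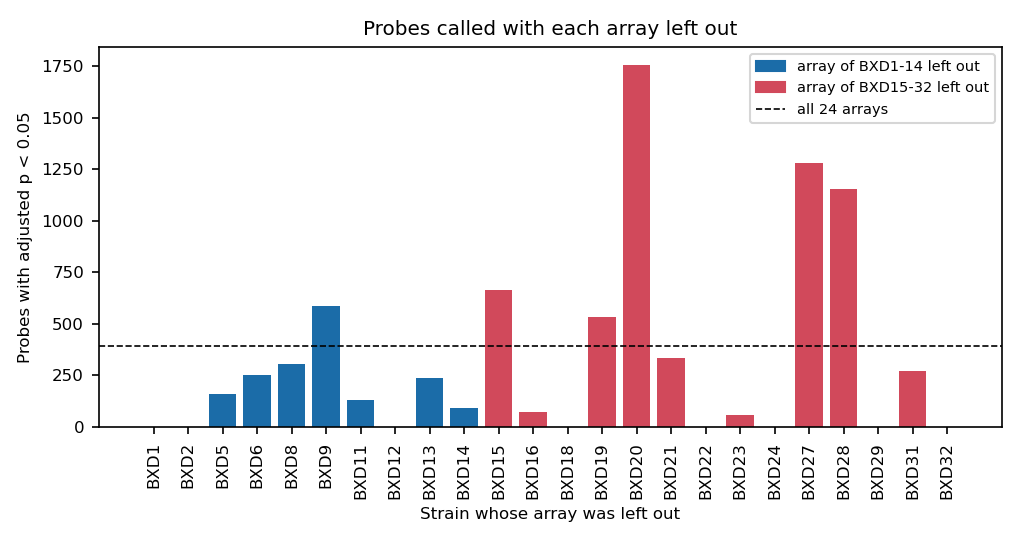
Number of probes with an adjusted p under 0.05 (y axis, limma) when the array of the strain on the x axis is left out. Bars are coloured by group and the dashed line is the 395 probes called with all 24 arrays. The count is 0 for 8 strains and reaches 1754 without BXD20.

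The MHC class II gene H2-Aa was lower in BXD15-32 on the probe that was called. H2-Aa encodes the alpha chain of the I-A molecule, which presents peptides to CD4 T cells. Its promoter region in RefSeq (assembly GRCm38.p6, minus strand, chr17:34287824-34288073, the 250 bases before the start) is shown because H2-Aa is the antigen presentation gene that was called, and no binding was measured. Capitals mark the Y box sequence CTGATTGG, known as a site of NF-Y, whose first base lies 51 bases before the start. These 8 bases occurred on either strand in 1258 of 32851 RefSeq promoter windows (3.83%), searched over the 250 bases before each start.
H2-Aa: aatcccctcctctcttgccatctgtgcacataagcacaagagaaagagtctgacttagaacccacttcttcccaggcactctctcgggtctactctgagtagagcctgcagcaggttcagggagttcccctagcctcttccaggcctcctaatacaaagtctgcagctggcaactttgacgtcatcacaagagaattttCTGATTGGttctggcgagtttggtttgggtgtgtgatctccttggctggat

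On H2-Aa probe 17950, BXD1-14 had a lowest log2 ratio of 0.08, a median of 0.58 and a highest of 2.38. BXD15-32 had a lowest of -1.79, a median of -0.34 and a highest of 0.58. All arrays of BXD1-14 were above 0, and 11 of 14 arrays of BXD15-32 lay below every one of them. The means were 0.81 ± 0.74 (SD, n = 10) and -0.44 ± 0.62 (SD, n = 14), a difference of -1.24 ± 0.26 (SE; limma, adjusted p = 0.0319), or -1.14 without BXD15. The other H2-Aa probe, 6911, had medians of 0.47 and -0.15 and a difference of -0.56 ± 0.20, which did not pass (adjusted p = 0.109). In BXD33-42 the medians of these probes were -0.51 and -0.46. The fall of probe 17950 lost its call in 8 of the 24 fits that lacked 1 array.

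**Figure D3:**
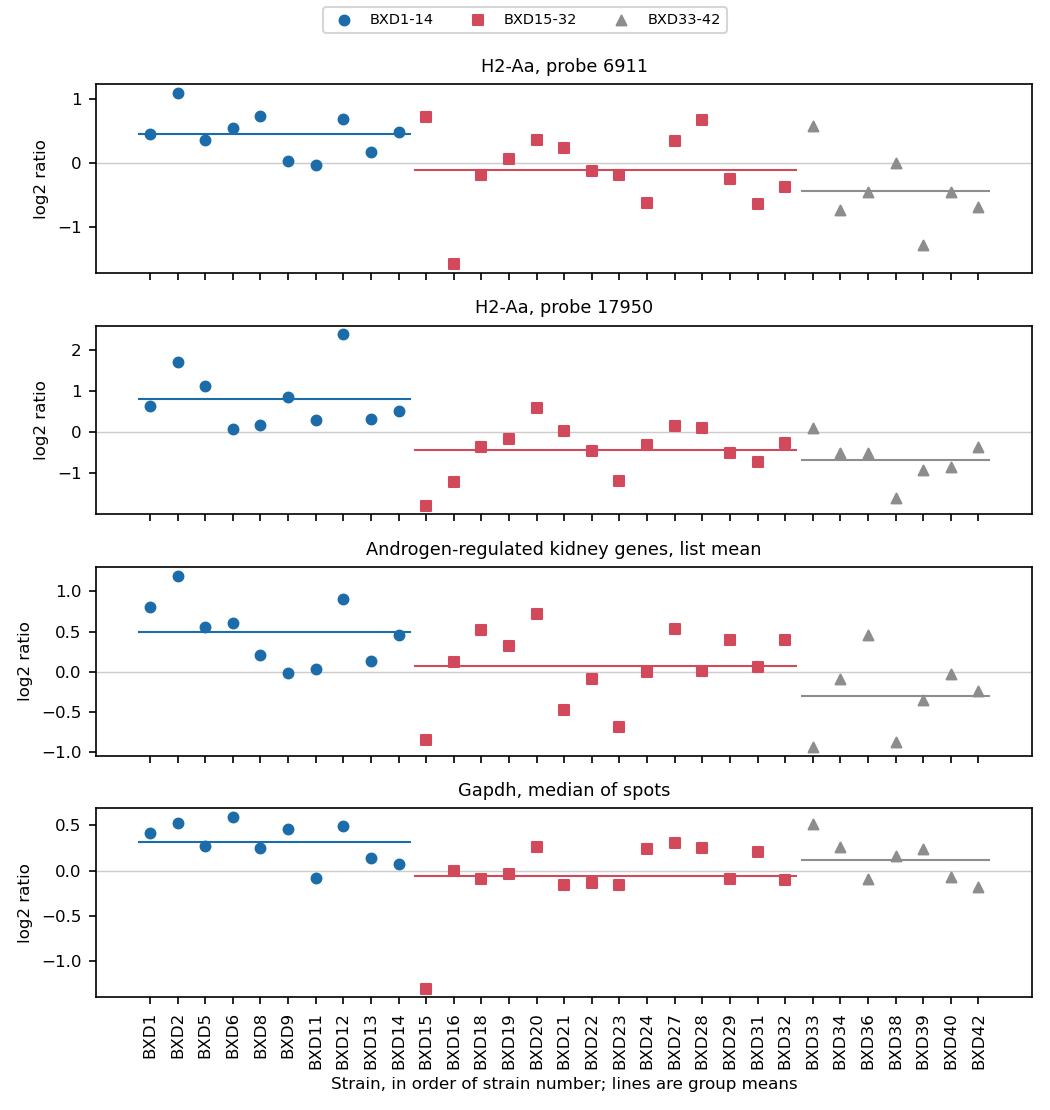
Log2 ratio (y axis) of each strain in order of strain number (x axis) for both H2-Aa probes, the mean of the androgen-regulated kidney genes, and the median of the Gapdh spots. Horizontal lines are group means. In the panel of H2-Aa probe 17950, all arrays of BXD1-14 are above 0 and 11 of 14 arrays of BXD15-32 are below all of them, and in the last panel BXD15 lies lowest at -1.30.

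Of 17 measured genes of antigen presentation, 1 was called lower (H2-Aa, both probes averaged, -0.90 ± 0.19) and none higher. For comparison, 237 of all 15096 genes were called (1.57%), 0.762% higher and 0.808% lower. A further 4 genes of the list had an unadjusted p under 0.05, all with negative differences. These were Tapbp, which loads peptides onto class I molecules (-1.46, adjusted p = 0.0869), the class I heavy chain gene H2-D1 (-0.75), the class II beta chain gene H2-Ab1 (-0.44) and the peptide transporter gene Tap1 (-0.29). Cd74, the class II invariant chain, had a difference of -0.41 (adjusted p = 0.242). H2-Eb1 (-0.02), H2-Ea (0.12), H2-K1 (0.10) and B2m (0.11) had differences near 0, as did the class II transactivator Ciita (-0.12). The median over the list was -0.14, beside -0.00 over all genes, and 5 of 17 were above 0, beside 49.5% of all genes. At an unadjusted p under 0.05 were 29.4% of the list, H2-Aa included, beside 21.5% of all genes.

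The largest called increase among genes named by rule was that of Smim11, a small membrane protein gene. BXD1-14 ran from -3.08 over a median of -0.55 to 0.56, and BXD15-32 from -0.85 over 1.12 to 2.70. The groups overlapped, and 9 of 14 arrays of BXD15-32 were above all of BXD1-14. The difference was 1.85 ± 0.40 (limma, adjusted p = 0.0319). A second probe of Smim11 had a difference of -0.28.

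Hspa5 encodes BiP, the main chaperone of the endoplasmic reticulum. Its called probe ran from -1.11 over a median of -0.07 to 0.56 in BXD1-14, and from -0.06 over 1.78 to 3.34 in BXD15-32. In BXD15-32, 10 of 14 arrays exceeded every array of BXD1-14, with BXD20 lowest and BXD23 highest. The difference was 1.83 ± 0.36 (limma, adjusted p = 0.0319). The other Hspa5 probe had a difference of the opposite sign, -0.32 (adjusted p = 0.373). The mean of both was not called (0.76, adjusted p = 0.061). Of 18 genes of the unfolded protein response, of which Hspa5 is a target, 9 were above 0, the median was 0.00 and none was called. Calr, a second chaperone of that compartment, had medians of 0.91 in BXD1-14 and 0.45 in BXD15-32.

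Further increases were those of Syt13, Fgf12, Sncg and Lbp. Syt13, of the synaptotagmin family of membrane trafficking proteins, ran from -4.07 over -1.75 to -1.28 in BXD1-14 and from -2.25 over -0.40 to 0.43 in BXD15-32. All arrays of BXD1-14 were thus well below 0, and 11 of 14 arrays of BXD15-32 were above all of them (difference 1.46 ± 0.31). Fgf12, an intracellular member of the fibroblast growth factor family that acts on sodium channels, had medians of -0.90 and -0.07 and a difference of 1.01 ± 0.21. For the gamma-synuclein gene Sncg the medians were -1.20 and -0.13, with a difference of 1.03 ± 0.27. Lbp, which encodes the lipopolysaccharide-binding protein of the acute phase, had medians of -0.73 and 0.18 and rose by 1.08 ± 0.28.

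Mtfmt, the enzyme that formylates the initiator tRNA of mitochondria, had medians of -1.42 in BXD1-14 and 0.08 in BXD15-32, and rose by 1.20 ± 0.26. Of the cytosolic ribosomal protein gene Rpl23, 1 probe rose by 1.17 ± 0.30 and the other had a difference of -0.06. Inka1, an inhibitor of the kinase Pak4, rose by 1.37, Hmgxb4, an HMG box protein gene, by 1.04, and Armc2, an armadillo repeat gene, by 1.07. The other increases named by rule were of 4930556G01Rik (1.64), 1700083H02Rik (1.56), 4930590G02Rik (1.31) and 4930562F07Rik (1.29), known by clone names. The first 3 of these and Rpl23 share position 392 of the 480 in the repeated spot layout, the position with the highest mean difference (0.32) and 5 called probes. Over the 24 arrays these 4 probes had pairwise correlations of 0.754 to 0.899, against a median of 0.731 over all pairs of the 15 increases. With the mean of the position removed, their differences were 1.31 for 4930556G01Rik, 1.23 for 1700083H02Rik, 0.99 for 4930590G02Rik and 0.84 for Rpl23. The part of the position in them beyond its mean was not tested. Lbp lay at position 64, which had a mean difference of 0.30, and its difference was 0.79 with that mean removed. All 15 increases had adjusted p-values between 0.0319 and 0.0492 (limma).

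The largest decrease among genes named by rule was on a probe of the immunoglobulin heavy chain variable gene Ighv6-6. BXD1-14 ran from 0.22 over a median of 2.58 to 3.69, and BXD15-32 from -2.47 over -0.44 to 2.05. BXD1-14 lay above 0 throughout, and BXD15-32 lay on both sides of it. The difference was -2.58 ± 0.54 (limma, adjusted p = 0.0319). The 33 other probes that carry the name Ighv6-6 had differences from -0.22 to 0.73, and the one at 0.73 was itself called, as higher (adjusted p = 0.0493).

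Tmem134, Thsd1 and Hdnr were tightly spaced in BXD1-14 and widely spread in BXD15-32. Tmem134, a transmembrane protein gene, ran only from 0.24 over 0.67 to 0.80 in BXD1-14, but from -2.67 over -1.98 to 1.01 in BXD15-32. There, 11 of 14 arrays lay below all of BXD1-14 and the others, BXD20 highest, lay among or above them (difference -1.85 ± 0.41). Thsd1, a thrombospondin domain gene, ran from -0.46 over -0.07 to 0.24 in BXD1-14 and from -3.18 over -1.94 to 0.15 in BXD15-32 (difference -1.37 ± 0.34). Hdnr ran from 0.09 to 0.87 and from -3.08 to 0.99, with a difference of -1.53. Tmed6, of the p24 family of cargo proteins between endoplasmic reticulum and Golgi, ran from -0.37 over 0.31 to 1.39 and from -3.41 over -2.10 to 0.78. Tmed6 was less tightly spaced in BXD1-14 (SD 0.54) than Tmem134 (SD 0.18). In Tmed6 the difference was -2.02 ± 0.45, and BXD15 was the highest array of its group.

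Rfx5, Nrf1, Smchd1 and Rnu5g were also among the decreases. Rfx5, a subunit of the complex that binds the X box of MHC class II promoters, ran from -0.05 over 1.43 to 3.0 in BXD1-14 and from -2.33 over -0.12 to 1.20 in BXD15-32. Of the 14 arrays of BXD15-32, 7 were below all of BXD1-14, and the difference was -1.72 ± 0.46 (limma, adjusted p = 0.0493). Nrf1, nuclear respiratory factor 1, a transcription factor of genes for mitochondria, had medians of 2.15 and 0.14. Its difference was -1.52, or -1.05 with spot position removed. The Nrf1 probe lay at position 24, which had the lowest mean difference of all positions (-0.47). Smchd1, a chromatin protein needed for X inactivation, had medians of 1.27 and -0.75 and fell by 2.02 ± 0.49. The spliceosomal RNA gene Rnu5g had medians of 0.54 and -1.69, with a difference of -1.99 ± 0.50. Over the 24 arrays, Rfx5, Smchd1, Ighv6-6 and Rps4l followed nearly the same pattern, with pairwise correlations of 0.914 to 0.960, against a median of 0.667 over all pairs of the 15 decreases. These 4 genes were grouped after their values were seen, and all were chosen for the same group difference, which raises each correlation.

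Gnas encodes the stimulatory G protein alpha subunit. Its called probe ran from -0.85 over -0.23 to 2.14 in BXD1-14 and from -2.84 over -1.66 to -0.44 in BXD15-32. The highest value was that of BXD14, and the other 9 arrays of its group were at or below 0.40. The difference was -1.61 ± 0.33, against -0.11 for the second Gnas probe. The other decreases named by rule were of Rps4l (-1.99), Potegl (-1.53), 1110065P20Rik (-1.47), 5830471E12Rik (-1.30) and 1 Gapdh spot (-1.33). All 15 decreases had adjusted p-values between 0.0319 and 0.0493.

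**Figure D4:**
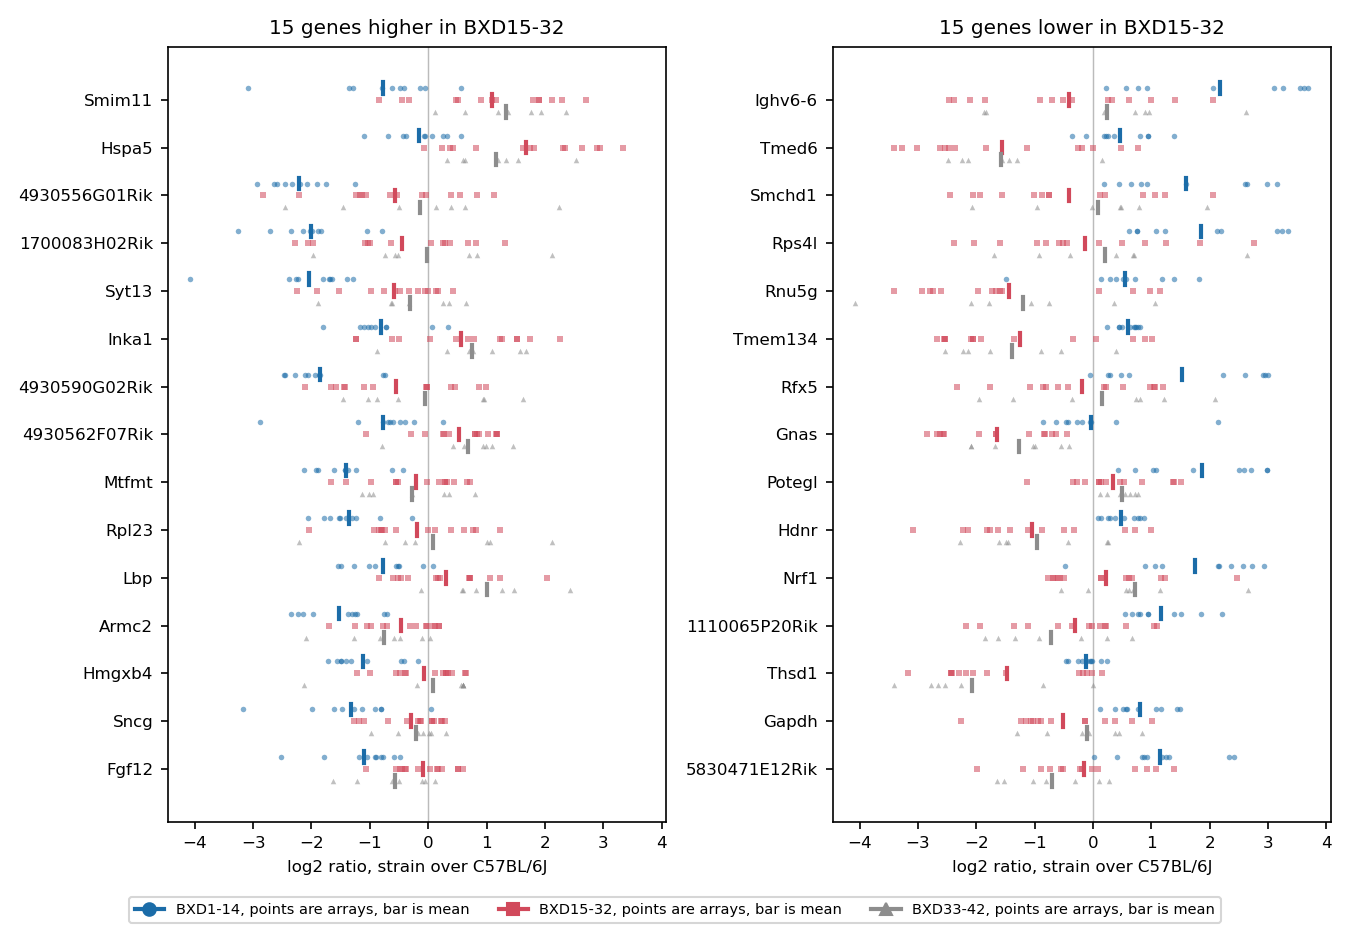
Log2 ratio of strain over C57BL/6J (x axis) for the 15 genes of largest called increase (left) and decrease (right) in BXD15-32. Points are arrays of BXD1-14 (circles), BXD15-32 (squares) and BXD33-42 (triangles), and vertical bars are group means. The values of BXD1-14 and BXD15-32 overlap in every gene shown, and Tmem134 and Thsd1 are tightly spaced in BXD1-14 only.

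The 30 probes were called with all 24 arrays, without BXD15, with spot position removed and with both, as the rule asked. Each lost its call in 8 to 18 of the 24 fits that lacked 1 array, and none changed direction. A change of direction was unlikely from the start, since these probes were taken for their large differences. Of the 30 genes, 7 had other probes, and for 2 of these, Hmgxb4 (0.22 on its other probe) and Gnas, every other probe had the same sign. Over the 884 genes with a pair of probes of different sequence records, both differences had the same sign in 51.1%. The correlation of the 2 differences over these genes was 0.0008, so the probes of a pair did not share the group difference. Exactly 1 probe of the pair was called in 32 genes, and both in 0. In these 32 the signs were the same in 53.1%. The values given under a gene name are thus those of a probe. Gene values averaged over several probes, as in the lists, carry the same limit.

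Of 73 measured genes in 6 lists of the nephron, 2 were called, Dpep1 and Slc26a4, both lower. This was 2.74%, beside 1.57% over all genes, and at an unadjusted p under 0.05 it was 23.3%, beside 21.5%. Over all 38 gene lists, which also hold other tissues and processes, 6 of 758 measured genes were called (0.792%), 1 higher and 5 lower. Dpep1, the renal dipeptidase of the proximal tubule brush border, ran from 0.29 over 0.82 to 2.16 in BXD1-14 and from -1.53 over -0.11 to 1.07 in BXD15-32. All arrays of BXD1-14 were above 0, and 11 of 14 of BXD15-32 were below all of them. Dpep1 fell by 1.13 ± 0.24 (limma, adjusted p = 0.0352). The other 32 measured genes of the proximal tubule list were not called. The median of the list was -0.08, and 0.02 without BXD15. Among these, Slc4a4, the basolateral bicarbonate transporter, had a difference of -0.73 (adjusted p = 0.149) and the organic anion transporter Slc22a6 one of -0.20.

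Slc26a4 encodes pendrin, the chloride and bicarbonate exchanger of intercalated cells. It ran from 0.13 over 0.49 to 0.96 in BXD1-14 and from -0.63 over -0.09 to 0.69 in BXD15-32, and 10 of 14 arrays of the second group were below all of the first. It fell by 0.60 ± 0.14 (limma, adjusted p = 0.0399), a call that was lost with spot position removed (-0.48, adjusted p = 0.0534), where 2.47% of all genes were called. Foxi1, the transcription factor of these cells, had a difference of the other sign (0.52, adjusted p = 0.0801). The median over the 8 measured intercalated cell genes was 0.06. The medians were 0.02 for 12 genes of principal cells, 0.03 for 7 of podocytes, -0.19 for 7 of the loop of Henle and -0.28 for 6 of the distal tubule, with no member called. With spot position removed they were 0.05, 0.09, -0.05 and -0.28.

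The androgen-regulated kidney genes had the lowest median of the 38 lists with all 24 arrays, and with spot position removed only the distal tubule list was lower (-0.28 against -0.27). All 13 measured genes had negative differences, with a median of -0.37, or -0.22 without BXD15. None was called and 2 (15.4%) had an unadjusted p under 0.05, beside 21.5% of all genes. Per array, the list mean ran from -0.01 over a median of 0.51 to 1.20 in BXD1-14, and from -0.85 over 0.09 to 0.72 in BXD15-32. The groups overlapped broadly, with BXD2 highest and BXD15 lowest. The genes of this list also vary more than most, with a median SD over arrays of 0.82 against 0.35 for all genes.

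The largest difference in that list was of Slco1a1, an organic anion transporter of the male kidney. It ran from -1.06 over 0.68 to 1.53 and from -1.57 over -0.45 to 0.68, a difference of -0.92 (adjusted p = 0.0614). With spot position removed Slco1a1 was called, at -0.97 (adjusted p = 0.0394). Acsm3, an acyl-CoA synthetase, had a difference of -0.83 (adjusted p = 0.151). Kap, the kidney androgen-regulated protein, had a difference of -0.75 (adjusted p = 0.351), and its groups covered nearly the same range, from -1.01 to 2.96 and from -0.91 to 3.11. Odc1, which makes polyamines, had a difference of -0.51 (adjusted p = 0.418).

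**Figure D5:**
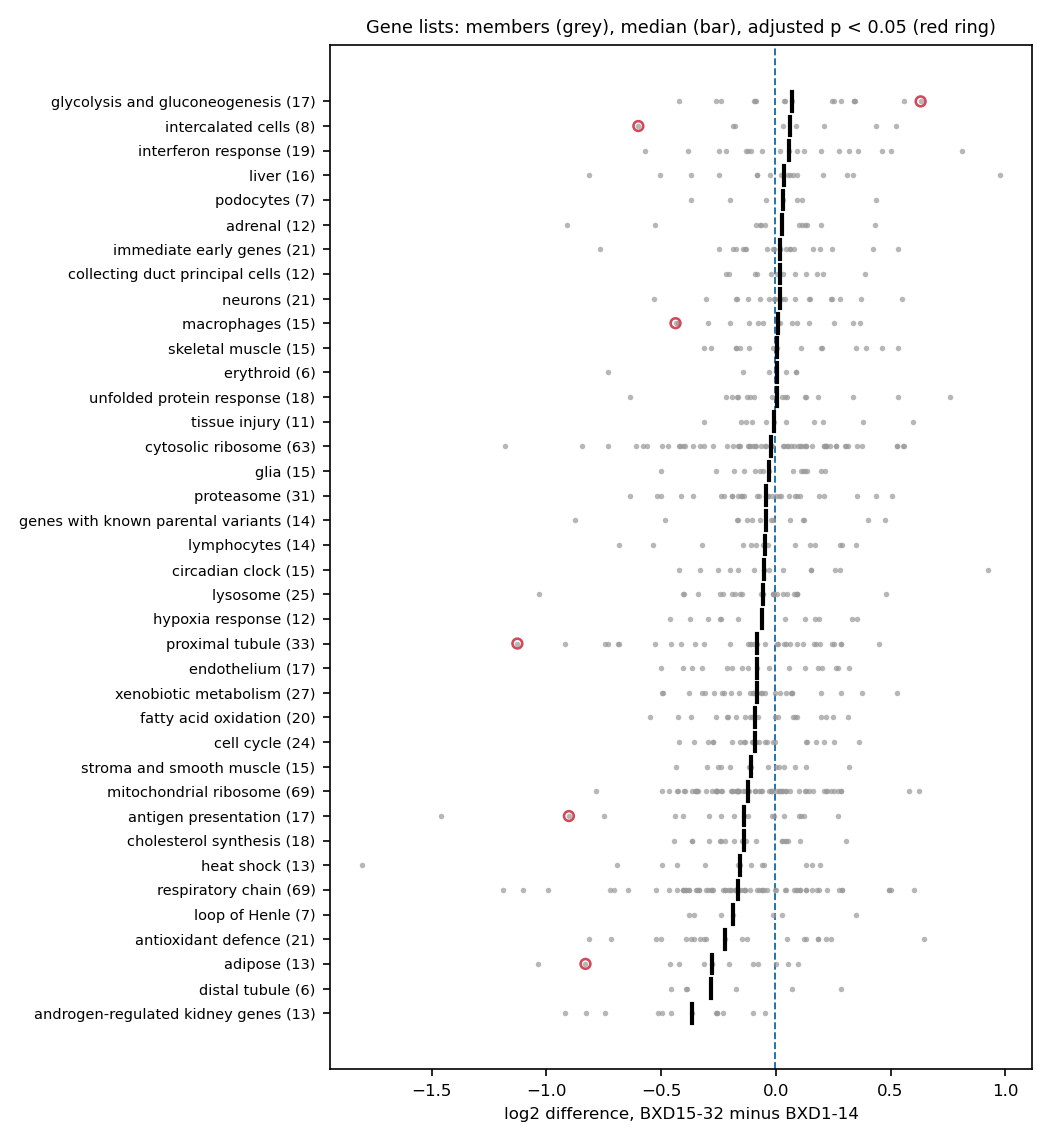
Log2 difference, BXD15-32 minus BXD1-14 (x axis), of each measured gene (grey points) in 38 gene lists (y axis, number measured in brackets), with the list median as a bar and the 6 called genes ringed. The medians run from -0.37 for androgen-regulated kidney genes to 0.07 for glycolysis and gluconeogenesis.

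In energy metabolism the called gene was Pgk1, phosphoglycerate kinase of glycolysis. It ran from -1.17 over -0.50 to 0.29 in BXD1-14 and from -0.34 over 0.22 to 0.60 in BXD15-32. Only 6 of 14 arrays were above all of BXD1-14, but 8 of 10 arrays of BXD1-14 were below all of BXD15-32. Pgk1 rose by 0.63 ± 0.14 (limma, adjusted p = 0.0352), and the median of the 17 genes of its list was 0.07. Of 69 measured genes of the respiratory chain, 21 were above 0, the median was -0.17 and none was called. At an unadjusted p under 0.05 were 4 higher and 11 lower, or 21.7% of the list, beside 21.5% of all genes. The largest differences there were those of Atp5g2 (-1.19), of the ring of ATP synthase, Ndufa12 (-1.10), of complex I, and Uqcrc1 (-0.99, adjusted p = 0.0655), of complex III.

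Of 69 mitochondrial ribosome genes, 24 were above 0 with a median of -0.12, and of 63 cytosolic ones 30 were, with a median of -0.02. None of either list was called, and at an unadjusted p under 0.05 there were 4 higher and 11 lower in the first and 6 in each direction in the second. This was 21.7% and 19.0% of these lists, beside 21.5% of all genes. Without BXD15, which had the lowest list mean in each of these lists, the medians were -0.13 for the respiratory chain, -0.08 for the mitochondrial and 0.03 for the cytosolic ribosome. Antioxidant defence (median -0.22, 21 genes) and cholesterol synthesis (-0.14, 18 genes) had no called member. The cholesterol synthesis median was -0.21 with spot position removed. In the heat shock list (median -0.16, or -0.06 with spot position removed, 13 genes), Bag3, a partner of Hsp70 proteins, had medians of 1.65 and -0.60. The Bag3 difference of -1.80 did not pass (adjusted p = 0.09).

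Marker lists of other cell types had medians near 0, other than the adipose list. C1qa, a complement gene of macrophages, ran from -0.01 over 0.36 to 0.71 in BXD1-14 and from -0.52 over 0.03 to 0.32 in BXD15-32. It fell by 0.44 ± 0.11 (limma, adjusted p = 0.0435), a call lost with spot position removed (-0.30, adjusted p = 0.142). C1qb, a chain of the same protein, had a difference of 0.37 (adjusted p = 0.11), and the macrophage list had a median of 0.01 over 15 genes. In bulk RNA, fewer cells of a type and less RNA per cell cannot be told apart. The lymphocyte list had a median of -0.05 over 14 genes and no call. Its list mean per array ran from -0.26 to 0.02 in BXD1-14 and from -0.40 to 0.01 in BXD15-32, and its part in the Ighv6-6 and H2-Aa differences was not tested.

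Ucp1, the uncoupling protein of brown fat, ran from 0.35 over 0.87 to 2.58 in BXD1-14 and from -0.23 over 0.20 to 1.23 in BXD15-32. It fell by 0.83 ± 0.20 (limma, adjusted p = 0.0413). The adipose list had a median of -0.28 over 13 genes, or -0.18 with spot position removed, with 3 above 0. Adipoq, the fat cell hormone adiponectin, had a difference of -1.04 (adjusted p = 0.182), or -0.56 with spot position removed. For the brain named in the source fields, the medians were 0.02 over 21 neuron genes and -0.03 over 15 glia genes, with no call. Endothelium (-0.08), stroma and smooth muscle (-0.11), liver (0.04), skeletal muscle (0.01), adrenal (0.03) and erythroid cells (0.01) had no called member either. With spot position removed, the medians of these 8 lists lay between -0.05 and 0.09, and those of glia (0.07) and adrenal (-0.01) changed sign.

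Genes known to differ between C57BL/6J and DBA/2J were examined as a list. The labels do not say which of these variants the parents carried when the strains were bred. Genotypes of the strains were not used, so whether any of these genes divides the strains by inherited allele was not tested. Of 14 measured, none was called with all 24 arrays. Gpnmb, a melanocyte and macrophage glycoprotein, ran from -0.13 over 0.09 to 0.28 in BXD1-14 and from -1.85 over -1.10 to 0.58 in BXD15-32. In the second group 11 of 14 arrays were below all of the first. The difference was -0.87 (limma, adjusted p = 0.0502). Without BXD15 it was -0.98 and was called (adjusted p = 0.0295), as were 2.15% of all genes. Nnt, the mitochondrial transhydrogenase deleted in part in C57BL/6J, had medians of 0.28 and 0.79 and a difference of 0.40 (adjusted p = 0.0543, and 0.046 without BXD15).

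Alad, of heme synthesis, had medians of -0.36 and 0.33 (difference 0.48, adjusted p = 0.0899). For Entpd4, a nucleotidase, they were -0.57 and -1.26 (difference -0.49, adjusted p = 0.191). The other 10 had differences between -0.17 and 0.12, among them Hc (-0.17), Klrd1 (-0.13) and Glo1 (0.12). Genes that lie next to each other on a chromosome seldom moved together. Over 14832 adjacent pairs of genes, the differences had a correlation of 0.015, and 50.8% of pairs had the same sign. Of these pairs, 458 held a called gene, beside 1.57% of all genes called. Both were called in opposite directions in 1 pair and in the same direction in 3. So few pairs, taken from so many, are no sign of a local effect. The 3 pairs of the same direction were Ncoa2 with Tram1 (-0.43 and -0.58), Coq8a with Psen2 (-1.14 and -1.13) and Med14 with 4930500G05Rik (0.64 and 0.52).

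Repeated spots and spot position showed how far the group difference varied within an array. Gapdh, a glycolytic enzyme gene, was spotted 232 times. The median over its spots ran from -0.08 over 0.34 to 0.59 in BXD1-14 and from -1.30, in BXD15, over -0.06 to 0.31 in the other group. The groups overlapped, with means of 0.31 ± 0.22 (SD, n = 10) and -0.06 ± 0.40 (SD, n = 14). The difference was -0.37 (2-sided permutation test, p = 0.00417), and -0.28 without BXD15 (permutation p = 0.00444). Single Gapdh spots had differences from -1.40 to 0.48. Limma called 8 of the 232 (3.45%, beside 1.71% of all probes), all lower (beside 0.825% of all probes), and 217 were below 0. Without BXD15 it called 16 (6.9%, beside 2.88%).

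Spots repeat in a pattern of 480 positions, and 8.66% of the variance of the difference over probes lay between these positions (6.72% after adjustment for their number). The 48 blocks of the array held 1.46%. Differences of adjacent spots had a correlation of 0.173 over probes. Called probes were also gathered at some positions, each of which has 1 spot in each of the 48 blocks. The adjacent positions 469, 470, 471 and 472 held 6, 8, 12 and 4 of them, beside 1.71% of all probes. The mean differences there were 0.02, 0.02, -0.01 and 0.03, so removing the position mean moves these probes little. What gathered these calls was not tested. With the mean of each position removed, limma called 632 probes (2.74%), 319 higher (1.38%) and 313 lower (1.36%), of which 316 were among the 395. Strain number could also follow the order in which arrays were processed. The labels used here give no such order, so its part in these differences was not tested.

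The 7 arrays of BXD33-42 were set beside both groups in a fit of all 31 arrays. Against BXD1-14, limma called 1224 probes (5.31%), 523 higher (2.27%) and 701 lower (3.04%) in BXD33-42. Against BXD15-32 it called 0 (0%), with a smallest adjusted p of 0.192 and 1929 probes at an unadjusted p under 0.05. These contrasts share arrays with the main one, which called 586 probes (2.54%) in that fit. Hspa5 had a BXD33-42 median of 1.19, Tmem134 one of -1.76, Thsd1 one of -2.53 and the androgen list mean one of -0.24.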

How the data were processed

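The deposited values are log2 ratios of 31 arrays with 2 dyes, made by the authors with R 2.0.0 and limma, per the submitters' processing notes, which give no steps. Sorted values were identical in all columns, as quantile normalization by the authors would leave them. Intensities were not used here, and the number of arrays limits the precision. Members, gene lists and tests were chosen with earlier results of these data known.

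Differences were fitted on all 23040 probes with limma 3.58.1 in R 4.3.3 (lmFit, eBayes, 2-sided) and adjusted by Benjamini-Hochberg at 0.05. The Gapdh median used 1e+05 permutations. Probe names came from the platform table: 16874 probes had 1 symbol, 134 several and 6032 none, and 16196 were matched by gene number to RefSeq (GRCm38.p6). Probes of each of 15096 genes were averaged for the lists, which are described by counts and medians. Named were the 15 largest differences per direction among probes with 1 symbol called with the same sign in 4 fits (all arrays, without BXD15, position removed, both), a pool of 104 higher and 110 lower, and up to 4 members per list of largest difference plus all Gapdh spots and all parental variants. H2-Aa by probe and other list members were singled out after their values were seen. Position was removed by subtracting the mean of each of 480 positions per array. On simulated data of 23040 probes for this comparison, 44%, 90%, 98% and 100% of 50 probes shifted by 0.5, 1, 1.5 and 2 were recovered, with 4 false calls. The simulation drew each probe and array independently, with the same spread in both groups. It held nothing shared between the probes of an array, so these rates may not carry over to the real arrays.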

Additional observations from a re-analysis of the deposited data

Results flagged for a closer look

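In 10 of 138 sets of 7 or 10 values looked at, 1 array stood far from the others of its group. Chance alone also sets single arrays apart, and its rate for these sets was not tested. The sets share arrays, so the 10 are not separate findings. In BXD1-14, BXD1 was at -3.08 for Smim11, with the others from -1.35 to 0.56. BXD5 was at -4.07 for Syt13 (others -2.39 to -1.28) and at -2.88 for 4930562F07Rik (others -1.20 to 0.25). BXD9 was at -1.50 for Rnu5g (others 0.14 to 1.81) and at -0.21 for the mean of the loop of Henle list (others 0.07 to 0.35). BXD14 was at 2.14 for Gnas (others -0.85 to 0.40), and BXD12 at 0.53 for the mean of the liver list (others -0.12 to 0.16). In BXD33-42, BXD33 was at -2.12 for Hmgxb4 (others -0.18 to 0.60) and at 0.087 for the mean of the lysosome list (others -0.08 to -0.02). BXD42 was at 0.14 for the mean of the macrophage list (others -0.05 to 0.03). The group BXD15-32 has more than 10 arrays and was not examined in this way.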

How the results depend on the processing

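The number of called probes depended on the setting. From 395 it went to 664 without BXD15, 632 with position removed, 607 with block removed, 726 with both removed, 823 with position removed and without BXD15, 3725 with array weights and 0 with treat at a log2 change of 0.2 (1703 at an unadjusted p under 0.05). Leaving out 1 array gave 0 to 1754. It was 395 with arrays centred, 390 with robust eBayes, 497 without the 10% of probes of smallest SD, 314 with 1-symbol probes, 312 by exact rank-sum test and 586 with 31 arrays. Centring could not change the count, because all arrays hold the same sorted values. Called genes went from 237 to 373 with position removed. Of the 30 named probes, 30 lost the call with treat, 21 with the rank-sum test and 2 each with robust eBayes and 31 arrays. None reversed, but their choice asked for the same sign in 4 fits. That choice also took the largest differences, so a reversal was unlikely from the start. The list median kept its sign in 25 of 38 lists over without BXD15, position removed and the probe of largest SD per gene, and changed it in 13. No paired analysis was possible because the strain numbers are not shared between the groups. Signal over background is unknown here.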
